A study of Rattus norvegicus with 24 samples.

Results

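Fibroblast growth factors (FGFs) and their receptors were followed in the rat spiral ganglion, the cluster of primary auditory neurons and glia that carries signals from the cochlea to the brain. The set consists of 5 ligands (Fgf1, Fgf2, Fgf5, Fgf9 and Fgf18) and 3 receptors (Fgfr1, Fgfr2 and Fgfr3), and each was taken by its symbol as the brightest matching transcript on the arrays. A transcript was matched for 7 of the 8, out of 9627 named genes, with 1 transcript each. No transcript was matched to Fgfr2, which is not analysed here.

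The study used Sprague-Dawley rats of both sexes. Deaf rats had received kanamycin, an aminoglycoside antibiotic that kills cochlear hair cells, by daily intraperitoneal injection of 400 mg/kg, begun on postnatal day 8 (P8) and ended on P16. Hearing rats were littermates that were not injected. Ganglia were collected at P60 or P32, separated from the organ of Corti and divided into a basal and an apical portion, and each sample pooled 4 to 6 ganglia. The 8 groups of 3 samples were P60 deaf base, P60 hearing base, P60 deaf apex, P60 hearing apex, P32 deaf base, P32 hearing base, P32 deaf apex and P32 hearing apex. The drug reaches the whole animal and the pools hold all cells of the dissected tissue, so that in these samples fewer cells of a type and less RNA per cell cannot be told apart.

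FGFs are secreted proteins that bind receptor tyrosine kinases together with heparan sulfate on the cell surface, and the bound receptors signal mainly through the RAS and ERK kinases. ERK activity in turn switches on target genes and feedback inhibitors of the pathway. In the inner ear the family is best known for its part in forming the otic placode and the cochlear epithelium during development.

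Values are RMA-normalized array intensities (brightness after background correction and scaling), given here on the log2 scale, where 1 unit is a doubling. Each difference is a log2 value ± its SE, fitted by limma to groups of 3 samples, and adjusted p is by Benjamini-Hochberg with a threshold of 0.05. The sample medians lay between 290.7 and 341.5 intensity units over all 26419 transcripts. Replicate 1 of every group was on a platform that holds 8 samples, and replicates 2 and 3 on one that holds 16. Of the neuron markers listed, 10 of 12 measured lay above the sample median in every sample, as did 9 of 11 Schwann cell and satellite glia markers and 0 of 5 hair cell markers. Above it throughout were also 10 of 11 macrophage, 5 of 5 fibroblast and matrix, 6 of 8 bone and cartilage and 3 of 4 cochlear supporting cell markers. The summed intensity of the hair cell markers was 892 to 1749 in P60 deaf and 984 to 7744 in P60 hearing samples. At P32 it was 754 to 2361 in deaf and 1404 to 10785 in hearing samples. One library stood apart: of the 68 genes of the 14138-transcript table that were higher in deaf rats at P60, P32 hearing apex replicate 1 was the highest of the 12 hearing samples in 52 (each platform's mean subtracted).

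Among the ligands, Fgf5 was the member that differed with deafness. Fgf5 is best known for ending the growth phase of the hair follicle. At P60 its level was 10.5-fold higher in deaf than in hearing rats (95% interval 6.61 to 16.8), whereas at P32 no difference passed. It was the 1 of 7 members to pass at P60. Of all genes tested, 0.758% of the 9627 in the joined tables, which hold Fgf5 and Fgfr3, and 1.34% of the 5750 in the series-wide table, which holds the other members, passed.

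The 250 bases before the annotated start of Fgf5, the member with the largest change at P60, are shown for context. They lie on the minus strand of GRCr8 at chr14:11650244-11650493 (RefSeq sequence, 5′ to 3′), with motif matches in capitals.
Fgf5 promoter: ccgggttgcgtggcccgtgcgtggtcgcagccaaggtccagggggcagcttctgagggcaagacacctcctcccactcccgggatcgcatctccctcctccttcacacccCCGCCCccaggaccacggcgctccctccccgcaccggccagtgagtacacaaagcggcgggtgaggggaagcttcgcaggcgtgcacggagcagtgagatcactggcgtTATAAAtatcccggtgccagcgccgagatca
The capitals near the end are a TATA box (TATAAA), on the strand of the gene 31 to 26 bases before the start. The other capitals are a GC box, whose letters GGGCGG read on the opposite strand, 140 to 135 bases before the start. These motifs did not overlap, and the window held no AP-1 site (TGANTCA), cyclic AMP response element (TGACGTCA) or CCAAT box (CCAAT) on either strand. Of 33469 rat promoter windows of the same length, 12.9% held a TATA box, 30.5% a GC box, 6.34% an AP-1 match, 1.59% a cyclic AMP response element and 34% a CCAAT box. The GC content was 66.8%, against a median of 51.2% over those windows. The arrays give no data on binding or methylation there.

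In the apex at P60, Fgf5 had log2 levels of 8.37, 8.40 and 7.35 in deaf rats, against 4.32, 4.44 and 3.86 in hearing rats. In the base at P60 it had 7.86, 6.82 and 7.83 in deaf rats, against 4.80, 4.95 and 3.88 in hearing rats. All 6 deaf samples at P60 were above all 6 hearing samples, and the lowest of the deaf values was 6.82. At P32 the levels were 5.76, 4.57 and 5.14 in the deaf apex, against 6.67, 4.36 and 4.06 in the hearing apex. In the P32 base they were 6.54, 4.56 and 4.77 in deaf rats, against 5.40, 4.20 and 4.08 in hearing rats. The P32 groups overlapped in both portions, and the highest P32 value belonged to the hearing sample that stood apart.

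**Figure D1:**
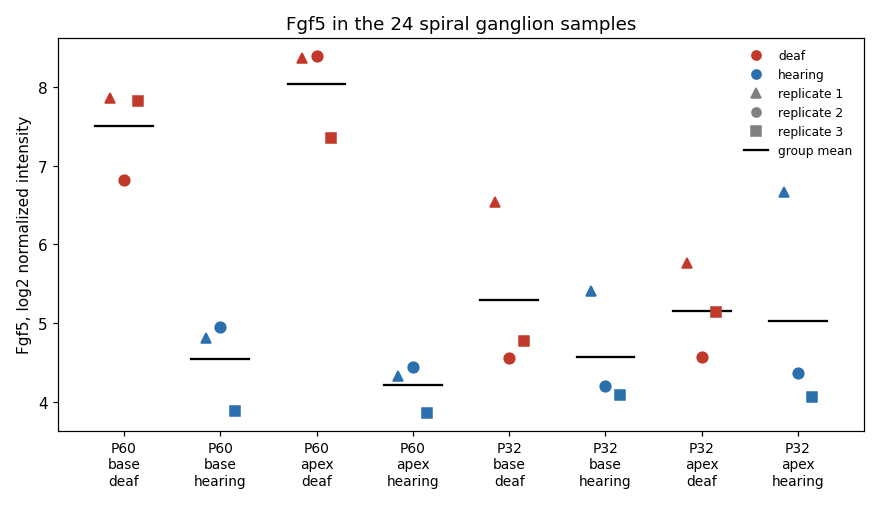
Log2 normalized intensity of Fgf5 (vertical axis) in the 8 groups (horizontal axis), with 1 point per sample, the marker shape giving the replicate number and a bar at the group mean. The 6 deaf samples at P60 sit between 6.82 and 8.40, above all other samples, the highest of which is 6.67.

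Averaged over both portions, Fgf5 was 7.77 ± 0.61 in deaf and 4.37 ± 0.45 in hearing rats at P60 (SD, n = 6 each), a difference of 3.40 ± 0.32 (adjusted p = 2.10e-05 over 9627 genes, limma). This was the smallest p of the 9627 genes in that comparison and the third largest difference upward. The main fit took base and apex samples of 1 pool as independent. Their estimated correlation within a pool was 0.63 over the 5750 and 0.59 over the 9627 genes. The SE and p of a mean over both portions can therefore be too small, here and below. In the apex alone the difference was 3.83 ± 0.45 (adjusted p = 0.00112, limma, where 0.343% of the 9627 and 0.504% of the 5750 genes passed). In the base alone it was 2.96 ± 0.45 (adjusted p = 0.00816, limma, where 0.0519% of the 9627 and 0.0696% of the 5750 genes passed). The deafness effect in the base minus that in the apex was -0.14 over both ages, with a 95% interval of -1.09 to 0.81.

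The apex and mean values passed in all 24 fits that left out 1 sample. The base value lost its call when P60 deaf base replicate 3, P60 hearing base replicate 1 or P60 hearing base replicate 3 was left out (adjusted p = 0.104, 0.121 and 0.0899, limma), and also with base and apex samples of 1 pool as a random block (adjusted p = 0.0684). The base call was lost as well with no platform term (adjusted p = 0.153, limma) and on the 16-sample platform alone (2.91, adjusted p = 0.215). Over both portions the P60 difference in Fgf5 was 3.55 on the 8-sample platform, with 1 sample per group, and 3.32 on the 16-sample platform.

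At P32 Fgf5 was 5.22 ± 0.79 in deaf and 4.80 ± 1.04 in hearing rats (SD, n = 6 each). The difference of 0.43 had a 95% interval of -0.25 to 1.10 and an adjusted p of 1.0 in limma, and without P32 hearing apex replicate 1 it was 0.70 (adjusted p = 0.692, limma). None of the 7 members passed at P32 in limma (1 had an unadjusted p under 0.05), where 0.0208% of the 9627 and 0.0174% of the 5750 genes passed.

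In deaf rats Fgf5 was higher at P60 than at P32, by 2.55 ± 0.32 (adjusted p = 0.00104, limma). It was the 1 of 7 members to pass there, as did 0.114% of the 9627 and 0.104% of the 5750 genes. All 6 deaf P60 samples lay above all 6 deaf P32 samples. With the random pool block the difference was 2.55 (adjusted p = 0.0943, limma). A replicate block within each age sets the age difference at the level of replicate 1, where it was 1.73 (adjusted p = 0.0535, limma). That value is therefore not the difference over all replicates and does not test it. The summed intensity of 8 bone and cartilage markers was 44878 to 82161 in P60 deaf, against 75365 to 95086 in P32 deaf samples. That of 6 endothelium and pericyte markers was 41547 to 53284 in P60 deaf, against 27404 to 45376 in P32 deaf samples. None of these markers passed in limma (3 of the 8 and 0 of the 6 had an unadjusted p under 0.05), and their part in the Fgf5 difference was not tested. In hearing rats the P60 minus P32 difference was -0.42 (95% interval -1.09 to 0.25), and 0 of 7 members passed there in limma (none had an unadjusted p under 0.05), as did 0.0519% of the 9627 and 0.087% of the 5750 genes.

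The deafness effect on Fgf5 was larger at P60 than at P32 by 2.97 ± 0.45 (adjusted p = 0.0364, limma). Fgf5 was the 1 gene of 9627 to pass this test (0.0104%). That call held in 7 of 24 fits that left out 1 sample, among them the one without P32 hearing apex replicate 1 (2.69, adjusted p = 0.0388), and it was lost with the random pool block (adjusted p = 1.0). It was also lost with no platform term (adjusted p = 0.661, limma) and on the 16-sample platform alone (2.74, adjusted p = 0.355). On the log2(value + 100) scale the difference of effects was 1.33 (adjusted p = 0.0174).

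Markers of other cells moved with the P60 comparison. Of 11 macrophage markers measured, 6 passed in limma as higher in deaf rats at P60 (Cd68, Csf1r, Adgre1, C1qb, C1qc and Laptm5, each by at least 0.90), where 1.34% of the 5750 and 0.758% of the 9627 genes passed. The summed intensity over the 11 was 73270 to 119170 in P60 deaf, against 26234 to 77379 in P60 hearing samples. In P32 deaf samples, where Fgf5 lay between 4.56 and 6.54, the same sum was 54528 to 99411. In P32 hearing apex replicate 1, with Fgf5 at 6.67, it was 110177. The sum for 12 neuron markers was 131414 to 207811 in P60 deaf and 169818 to 266118 in P60 hearing samples, with 0 of 12 called by limma (2 at an unadjusted p under 0.05). No value on the arrays was 0 (the smallest was 4.89 intensity units). The part of these cells in the Fgf5 difference was not tested.

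Fgf5 was dim on these arrays. Between 37.8% and 50.8% of all transcripts were dimmer than Fgf5 in P60 deaf samples, against 13.2% to 37.3% in the other 18 samples. It was not tested whether the lower of these values exceed the background of the array. On the log2(value + 100) scale the P60 difference was 1.41 and still passed.

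**Figure D2:**
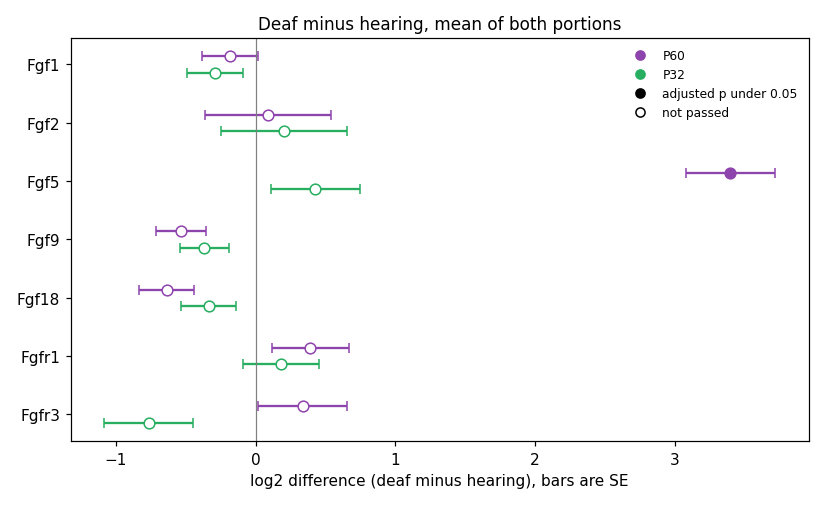
Deaf minus hearing log2 difference (horizontal axis, mean of both portions) of the 7 measured members (vertical axis) at P60 and P32, with bars for the SE and filled points for an adjusted p under 0.05. Fgf5 at P60, at 3.40, is the filled point; its P32 value is 0.43.

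Over the 24 samples, the 3 named genes whose pattern was most like that of Fgf5 were Gpr83, Atf3 and Plk2 (Pearson r = 0.89, 0.88 and 0.88 after each platform's mean was subtracted). Their P60 deaf minus hearing differences were 4.53, 3.36 and 1.33. The samples share pools and platforms, so these r values are a description.

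Fgf9, a secreted ligand that in mice takes part in the growth of the developing cochlea, had a median log2 level of 13.51 and a range of 12.02 to 14.08. At P60 its level was lower in the deaf sample of every same-numbered pair (6 of 6), with 13.06 ± 0.66 in deaf and 13.59 ± 0.46 in hearing rats (SD, n = 6 each). Base and apex pairs of 1 number share pools, so this count is a description and not 6 independent results. The difference of -0.53 did not pass (95% interval -0.90 to -0.16, adjusted p = 0.179, limma). In the base it had 13.41, 12.02 and 12.49 in P60 deaf rats, against 13.79, 12.82 and 13.42 in P60 hearing rats, and these ranges overlapped. In base against apex in deaf rats Fgf9 was lower in 6 of 6 pairs (-0.55, adjusted p = 0.152, limma), and it passed with the random pool block (adjusted p = 0.00562). With that block 10.2% of the 5750 and 7.99% of the 9627 genes passed in this comparison, against 2.02% and 1.84% without it.

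Fgf18, a ligand best known for its part in bone and cartilage growth, fell in the base relative to the apex of deaf rats. It was 9.78 ± 0.55 in the deaf base and 10.72 ± 0.35 in the deaf apex (SD, n = 6 each), a difference of -0.94 ± 0.20 (adjusted p = 0.0146, limma). It was 1 of 7 members to pass there, as did 2.02% of the 5750 and 1.84% of the 9627 genes. In P60 deaf rats Fgf18 was 9.76, 8.89 and 9.41 in the base, against 10.63, 11.06 and 11.23 in the apex. In P32 deaf rats it was 10.10, 10.39 and 10.13 in the base, against 10.43, 10.60 and 10.37 in the apex. The P60 deaf base was the lowest of the 8 groups, and its range did not reach the next group, the P32 deaf base.

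In hearing rats the base minus apex difference in Fgf18 was -0.53 ± 0.20 (adjusted p = 0.306, limma) and passed with the random pool block (adjusted p = 0.0355). The share of all genes that passed with that block in hearing rats is not given, so that call is no result about Fgf18. None of the 7 members passed there in limma without a block (2 had an unadjusted p under 0.05), where 1.5% of the 5750 and 1.01% of the 9627 genes passed. The base minus apex difference in deaf rats minus that in hearing rats was -0.42 (95% interval -1.0 to 0.17, adjusted p = 1.0, limma), so a difference between conditions was not shown. The deaf value lost its call without P60 deaf base replicate 2 (-0.82, adjusted p = 0.0517, limma) and on the 16-sample platform alone (-1.11, adjusted p = 0.0897).

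Glial markers moved with the same comparison. In deaf rats 3 of 8 oligodendrocyte and 3 of 7 astrocyte markers measured passed in limma as higher in the base, where 2.02% of the 5750 and 1.84% of the 9627 genes passed. In hearing rats 4 of 8 and 2 of 7 did, where 1.5% of the 5750 and 1.01% of the 9627 genes passed. The oligodendrocyte sum was 49727 to 79165 in the deaf base, against 16980 to 45905 in the deaf apex. The astrocyte sum was 57314 to 101201 in the deaf base, against 38121 to 52785 in the deaf apex. The sum for neuron markers was 117001 to 193139 in the deaf base and 125409 to 217582 in the deaf apex, with 0 of 12 called by limma (4 at an unadjusted p under 0.05). The part of these cells in the Fgf18 difference was not tested.

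At P60 Fgf18 was 10.16 ± 0.95 in deaf and 10.80 ± 0.46 in hearing rats (SD, n = 6 each). The difference of -0.64 did not pass (adjusted p = 0.142, limma), but did with a replicate block within each age (adjusted p = 0.0398). It passed in 2 of 12 alternatives besides leaving out samples, the other being array weights, and in 0 of 24 fits that left out 1 sample. In both of those alternatives the share of all genes that passed rose too, as given in the last section. In the base Fgf18 was 9.35 ± 0.44 in deaf and 10.42 ± 0.12 in hearing rats (SD, n = 3 each), without overlap, a difference of -1.07 with adjusted p = 0.368 in limma. Across the 24 samples Fgf9 and Fgf18 had r = 0.85 after each platform's mean was subtracted, the highest of the 21 pairs of members, and the genes most like Fgf18 in pattern were Slc45a1, Emc9 and Rundc3a (r = 0.92, 0.89 and 0.89). Those most like Fgf9 were Dync1li1, Fam110b and Sncb (0.87 each after rounding).

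**Figure D3:**
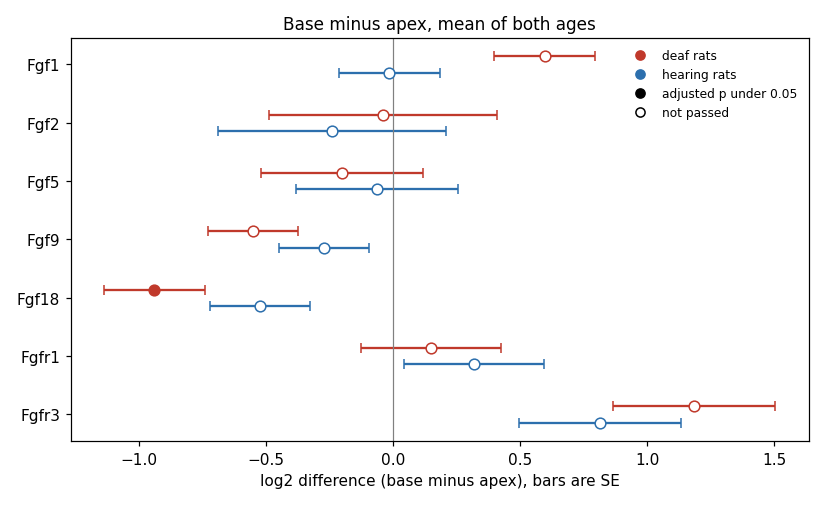
Base minus apex log2 difference (horizontal axis, mean of both ages) of the 7 measured members (vertical axis) in deaf and hearing rats, with bars for the SE and filled points for an adjusted p under 0.05. Fgf18 in deaf rats, at -0.94, is the filled point, and Fgfr3 has the largest positive values, at 1.18 in deaf and 0.81 in hearing rats.

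Fgf1, a ligand without a signal peptide that can bind all FGF receptors, had a median log2 level of 10.75. In base against apex of deaf rats it was 11.03 ± 0.40 in the base and 10.44 ± 0.60 in the apex (SD, n = 6 each). The difference of 0.60 did not pass (adjusted p = 0.179, limma) but did with the random pool block (adjusted p = 0.0129). With that block the share of all genes that passed rose too, as given for Fgf9. At P60 the deaf minus hearing difference in Fgf1 was -0.19 (95% interval -0.61 to 0.23). Replicate number accounted for more of the variance of Fgf1 than group did (r2 of 0.59 against 0.20). Replicate 1, which makes up the 8-sample platform, had a mean of 11.47, against 10.58 and 10.51 in replicates 2 and 3. The main fit holds a platform term. The genes most like Fgf1 in pattern were Smpx, Fgf21 and Rab3c (r = 0.78, 0.77 and 0.75).

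Fgf2, the other ligand without a signal peptide and a trophic factor for neurons in culture, spread with replicate number rather than with condition. Its values in replicate 2 ran from 7.37 to 9.51, against 6.88 to 7.69 in replicate 1 and 7.15 to 8.47 in replicate 3. At P60 it was 7.86 ± 0.61 in deaf and 7.77 ± 0.68 in hearing rats (SD, n = 6 each), and the interval of the difference, -0.86 to 1.03, leaves room for changes in either direction. The r2 with group was 0.05 and that with replicate number 0.67. The genes most like Fgf2 in pattern were Bzw2, Gatad2b and Ptpn21 (r = 0.92, 0.91 and 0.91).

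Of the receptors, Fgfr1, the widely expressed FGF receptor tyrosine kinase, had a median log2 level of 12.92 and a range of 12.18 to 14.04. At P60 it was higher in the deaf sample in 6 of 6 pairs (13.11 ± 0.42 in deaf, 12.71 ± 0.34 in hearing rats, SD, n = 6 each). Base and apex pairs of 1 number share pools, so this count is a description and not 6 independent results. The difference of 0.39 did not pass (95% interval -0.19 to 0.97, adjusted p = 0.646, limma). Fgfr1 passed in none of the other 11 comparisons either. The genes most like Fgfr1 in pattern were Niban1, Plpp3 and Dnm2 (r = 0.90, 0.89 and 0.89).

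Fgfr3, the receptor that restrains cartilage growth and in mice is needed for pillar cells of the cochlea, was dim, with 22.8% to 47.5% of transcripts dimmer. In P60 deaf rats it was 6.36, 8.03 and 7.80 in the base, against 5.15, 6.78 and 5.07 in the apex. In P32 deaf rats it was 6.18, 6.41 and 6.37 in the base, against 5.23, 5.98 and 5.84 in the apex. It was higher in the base in 6 of 6 pairs of deaf rats, and the groups did not overlap at P32. Averaged over ages the difference in deaf rats was 1.18 ± 0.32 (adjusted p = 0.0756, limma), and in hearing rats 0.81 ± 0.32 (adjusted p = 0.368). The deaf value passed with the random pool block (adjusted p = 0.0100) and without P32 hearing apex replicate 1 (adjusted p = 0.0332). With that block the share of all genes that passed rose too, as given for Fgf9. The oligodendrocyte and astrocyte sums given for Fgf18 moved with this comparison too, and their part was not tested.

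At P32 Fgfr3 was 6.0 ± 0.44 in deaf and 6.77 ± 0.80 in hearing rats (SD, n = 6 each), a difference of -0.76 with adjusted p = 1.0 in limma, and at P60 the difference was 0.34 (adjusted p = 0.949). The genes most like Fgfr3 in pattern were Bmp6, Pea15 and Cntn1 (r = 0.92, 0.89 and 0.89).

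**Figure D4:**
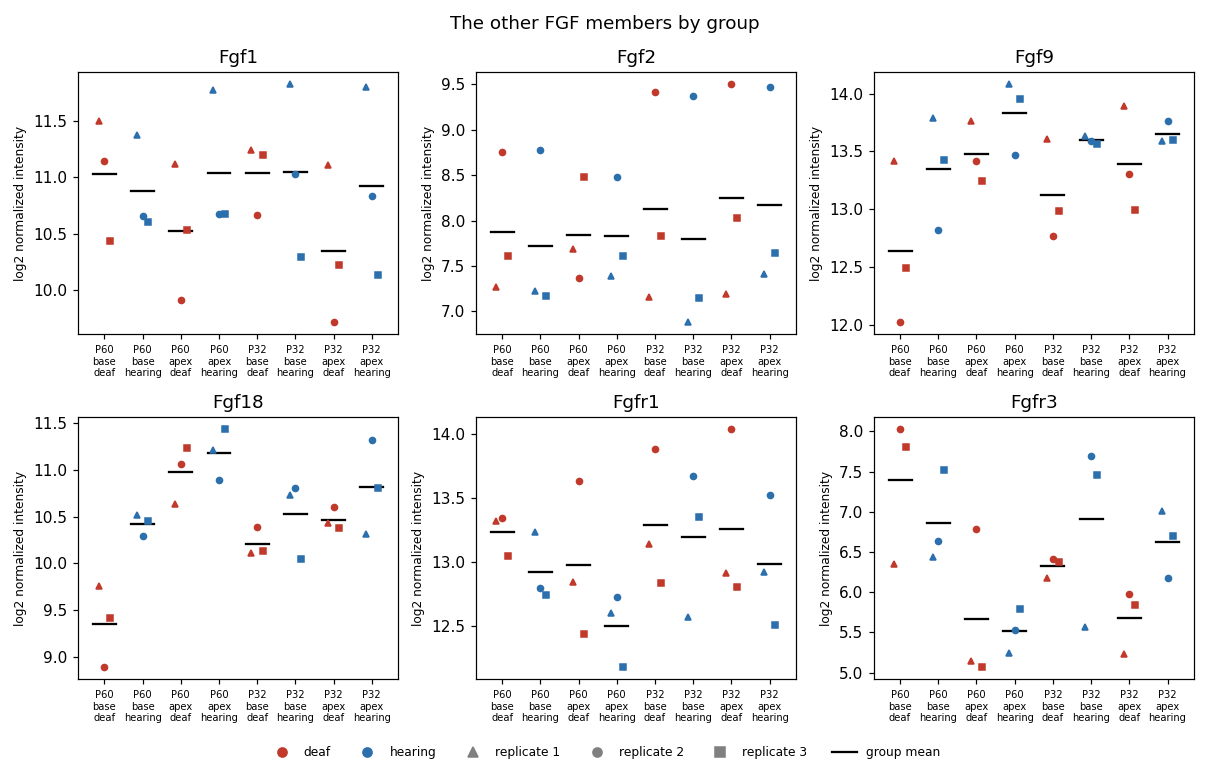
Log2 normalized intensity (vertical axes) of the other 6 members in the 8 groups (horizontal axes), with 1 point per sample, the marker shape giving the replicate number and a bar at the group mean. Replicate 2 (circles) is the highest Fgf2 value in 7 of the 8 groups, and the Fgf18 values are lowest in the P60 deaf base.

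Other genes of the pathway were described from 6 lists of 90 genes, of which 57 were measured. At P60, 2 of the 57 (3.51%) passed as higher in deaf rats and 0 as lower, where 1.34% of the 5750 and 0.758% of the 9627 genes passed. The lists were chosen with earlier results of these data known, so these shares are a description. Both genes that passed belong to the feedback inhibitors and target genes of FGF signalling. The list had 10 measured members, with 8 differences above 0, and a median of 0.35, against 0.04 over the 5750 and 0.02 over the 9627 genes. Fosl1, an AP-1 subunit induced by ERK, had log2 levels of 7.46 to 8.48 (median 8.26) in P60 deaf, against 6.36 to 7.19 (median 6.66) in P60 hearing samples, without overlap. The difference was 1.47 ± 0.26 (adjusted p = 0.00861, limma), and 0.93 on the log2(value + 100) scale. Ccnd1, cyclin D1 of the G1 phase, had 10.75 to 12.01 (median 11.53) in P60 deaf and 9.29 to 11.43 (median 10.38) in P60 hearing samples, which overlapped. The difference was 1.19 ± 0.24 (adjusted p = 0.0159, limma). In the apex alone it was 1.68 (adjusted p = 0.0315, limma), a call lost with the random pool block (adjusted p = 0.113), with no platform term (0.281), on the 16-sample platform (0.140) and when any 1 of the 6 P60 apex samples was left out (0.0640 to 0.209). With the random pool block neither Fosl1 (adjusted p = 0.335) nor Ccnd1 (adjusted p = 0.461) passed at P60, and leaving out P60 deaf apex replicate 2 or P60 deaf base replicate 3 also ended the call of Ccnd1 over both portions (adjusted p = 0.0546 and 0.0571). On the 16-sample platform alone both lost that call (adjusted p = 0.173 for Fosl1 and 0.0888 for Ccnd1, limma). Ccnd1 lost it with no platform term as well (adjusted p = 0.186, limma). The macrophage sum given for Fgf5 moved with this comparison, and its part in these differences was not tested.

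Among the heparan sulfate proteoglycans and their enzymes, which hold FGFs at the cell surface, 12 of 12 measured differences were above 0 at P60. Their median was 0.48, against 0.04 over the 5750 and 0.02 over the 9627 genes. None passed in limma (2 had an unadjusted p under 0.05). The 12 come from the same samples, so their signs are not 12 independent results. The members with the smallest p were Gpc1, a glypican (0.99, adjusted p = 0.174, limma), and Sdc2, a syndecan (0.47, adjusted p = 0.309). Macrophage marker sums, given for Fgf5, were also higher in P60 deaf samples. In the apex at P60 the summed intensity of 5 fibroblast and matrix markers was 129115 to 141117 in deaf, against 98715 to 119584 in hearing rats. In the base it was 143854 to 153720 in deaf, against 148133 to 152666 in hearing rats. The part of these cells in the heparan sulfate list was not tested. Of 11 other FGF ligands none passed at P60 (2 at an unadjusted p under 0.05), and Fgf10 and Fgf20, a ligand of the developing cochlear epithelium, had the smallest p (-0.68 and -1.08, adjusted p = 0.344 and 0.365). The 4 FGF homologous factors, intracellular partners of sodium channels, had a median of -0.60, and Fgf12 was -0.62 (adjusted p = 0.0625, limma). Fgf12 passed with a replicate block within each age (adjusted p = 0.0350), without P32 hearing apex replicate 1 (0.0172) or P32 deaf base replicate 3 (0.0475), with quantile normalization (0.0481) and with an intensity trend (0.0322). None of 6 other receptors, co-receptors and binding proteins passed (1 at an unadjusted p under 0.05), and Fgfrl1, a receptor without a kinase domain, was 0.71 (adjusted p = 0.363). Of 14 receptor adaptors and ERK relay members none passed (1 at an unadjusted p under 0.05), and Shc1, an adaptor, was 0.68 (adjusted p = 0.306). At P32 none of the 57 passed in limma (3 at an unadjusted p under 0.05).

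**Figure D5:**
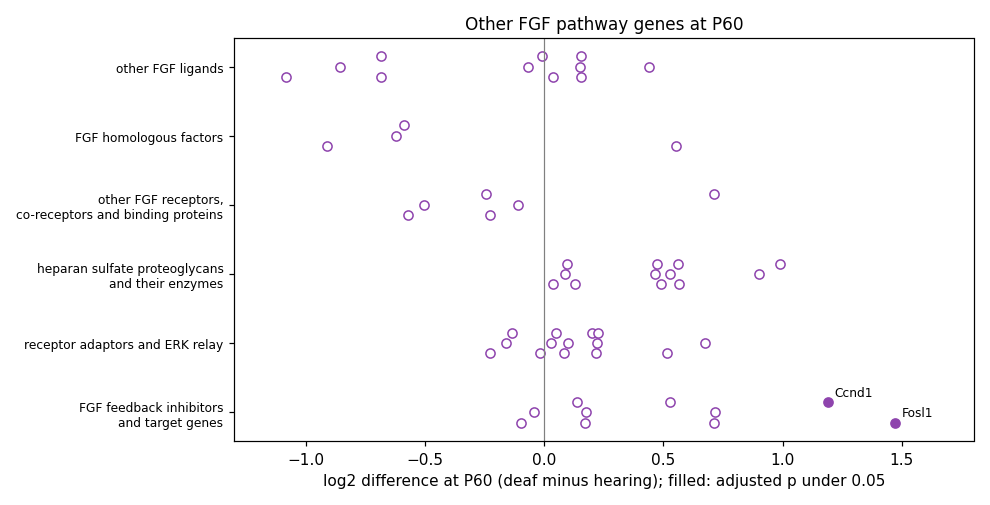
Deaf minus hearing log2 difference at P60 (horizontal axis) of 57 other FGF pathway genes, 1 point per gene, in 6 lists (vertical axis), with filled points for an adjusted p under 0.05. Fosl1 and Ccnd1 are filled, and the 12 heparan sulfate genes lie above 0.

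Between portions, Sulf2, an enzyme that trims sulfate groups from heparan sulfate outside the cell, was the 1 gene of the 57 (1.75%) to pass in each condition. That share lies near that of all genes, which was 2.02% of the 5750 and 1.84% of the 9627 in deaf rats, and 1.5% and 1.01% in hearing rats. In deaf rats it had log2 levels of 10.31 to 11.27 (median 10.92) in the base, against 9.03 to 10.28 (median 9.30) in the apex, without overlap. In hearing rats it had 10.38 to 11.28 (median 10.61) in the base, against 8.46 to 11.32 (median 9.22) in the apex, where P32 hearing apex replicate 1 was the highest. The differences were 1.32 ± 0.30 in deaf (adjusted p = 0.0246, limma) and 1.27 ± 0.30 in hearing rats (adjusted p = 0.0389). The call held in 16 of 24 fits that left out 1 sample in deaf and in 10 of 24 in hearing rats. The glial marker sums moved with Sulf2 too, and their part was not tested.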

How the data were processed

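The deposited intensity values are array signals after RMA normalization by the authors, per the submitters' processing notes; technical replicates had been averaged into 1 intensity value per sample, per the labels. The sources used here give neither the version of RMA nor whether the platforms were normalized together. Log2 of the deposited intensity values was taken here. Fgf1, Fgf2, Fgf9, Fgf18 and Fgfr1 came from the series-wide table (14138 transcripts, 5750 named genes). Fgf5 and Fgfr3 are absent there and came from the joined platform tables (26419 transcripts, 9627 named genes). How the 14138 were selected is unknown from these sources. Fgf5 reached 336.8 and Fgfr3 261.8 intensity units, and the smallest maximum of a kept transcript was 331.3. Names are from RefSeq (GRCr8).

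Two-sided tests used limma 3.58.1 (R 4.3.3), fitting 8 group means plus a platform term (15 residual degrees of freedom), for 12 comparisons, with p adjusted over each table. The script was tested on simulated data. Labels call the 3 samples of a group biological replicates, and arrays limit the precision by their number. No columns of values were identical.

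Members and lists were chosen with earlier results of these data known. Named pathway genes are those that passed, up to 4 per list, or else up to 2 with the smallest p. For likeness the 3 genes with the highest r are named.

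Same-numbered samples were not taken as pairs, since 2 of the 12 sets of groups had a correlation of 0.1 or less (0.048 and -0.015). Yet in 69 of 72 comparisons, which count each of the 24 samples more than once, a sample correlated best with its own number. Those correlations still held the platform difference, which the main fit removes. With the platform term fitted, the estimated correlation within a pool was 0.63 over the 5750 and 0.59 over the 9627 genes. The main fit therefore left shared variation in its error. This can hide base against apex differences, and a main test there that did not pass does not show their absence. Alternatives were leaving out each sample, the blocks, platform, scaling, pseudocount, filter, trend and weights.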

Additional observations from a re-analysis of the deposited data

Results flagged for a closer look

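Fgf5 differed in its deafness effect between the ages by a test of that difference itself: the effect at P60 exceeded that at P32 by 2.97 (adjusted p = 0.0364, limma), with deaf above hearing in 6 of 6 same-numbered pairs at P60 and in 5 of 6 at P32. Base and apex pairs of 1 number share pools, so these counts of pairs are a description and not independent results. The call depended on the fit: it held in 7 of 24 fits that left out 1 sample. It was lost with no platform term (adjusted p = 0.661, limma), on the 16-sample platform alone (0.355) and with the random pool block. Over the alternatives the adjusted p ran up to 1.0. The value was 2.69 without P32 hearing apex replicate 1 and 1.33 on the log2(value + 100) scale (adjusted p = 0.0174, limma).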

How the results depend on the processing

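No member's called difference changed sign under any alternative, and of 3033 values for single members 32 lost and 19 gained a call. The count of members called for deaf against hearing at P60 was 2 with a replicate block within each age and 3 with array weights, against 1 in the main test, and in the apex 3 with array weights. In the base it was 0 with no platform term, on the 16-sample platform and with the random pool block, 3 with array weights and 0 to 1 over left-out samples. For base against apex it was 1 in hearing rats with the random pool block. In deaf rats it was 0 on the 16-sample platform, 4 with the random pool block, 2 with a replicate block by pool, 2 with array weights, 4 with the replicate block and random pool block together, and 0 to 2 over left-out samples. In that comparison the share of all genes called rose too: of the 5750 and 9627 genes, 2.02% and 1.84% passed in the main test, 10.2% and 7.99% with the random pool block, 7.18% and 5.58% with the replicate block by pool, 8.8% and 6.5% with both blocks, and 8.5% and 12.5% with array weights. At P60, 4.71% and 2.48% passed with the replicate block within each age and 25.1% and 28.1% with array weights. For P60 against P32 in deaf rats it was 0 with the random pool block. It was also 0 with the replicate block within each age and with both blocks, which set that comparison at the level of replicate 1. For the age difference it was 0 with no platform term, on the 16-sample platform, with the random pool block and with both blocks, and 0 to 1 over left-out samples. For the P60 apex, the P60 base and hearing rats, shares of all genes under these settings are not given. The counts of members there are therefore no result about the members. The cause was not tested. The estimate of array weights stopped before it converged, so its calls are doubtful. The fit with both blocks was chosen after seeing the data. In the pairing check, a sample correlated best with its own number in 69 of 72 comparisons, which count each of the 24 samples more than once. Of 124 sign changes, all were in differences that passed in neither fit. The filter on dim genes left out Fgf2. Of the 40 pathway genes that the naming rule gave over all comparisons, no called difference changed sign. How far dim values of Fgf5 and Fgfr3 exceed background limits their folds.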
